A study of Mus musculus with 5 samples.

Results

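The AP-1 family genes are 10 genes that encode basic leucine zipper (bZIP) transcription factors: Jun, Junb, Jund, Fos, Fosb, Fosl1, Fosl2, Batf, Batf3 and Jdp2. They were taken as a family by name, and the rule uses no measured value, although it was set with earlier results of these data known. The measurement was of H3K27ac, a histone acetylation found at promoters and enhancers in use, by CUT&Tag, in which an antibody brings a transposase to the mark and the DNA beside it is sequenced. A window was the gene span of GENCODE M21 extended by 20 kb on each side, and its value was the sum of the read counts of all peaks that overlapped it. The 10 windows held 114 of the 124158 peaks, and they are 10 of 17714 windows of protein-coding genes with at least 1 peak. Levels are given as CPM, the counts relative to the library's total in tested peaks, scaled between libraries by TMM. Differences are log2 fold changes of KO over Ctrl, called log2 differences below.

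The cells were Treg cells sorted from the large intestine of C57BL/6 mice aged 2 weeks, as CD3+ CD4+ cells with the YFP reporter of Foxp3. Ctrl mice were Foxp3CreSetd2flox/+ and KO mice Foxp3CreSetd2flox/flox, so that both groups carried the Foxp3-driven Cre and at least 1 floxed allele of Setd2, the enzyme that trimethylates lysine 36 of histone H3. Each genotype had 2 libraries, each made from 60000 cells pooled from 3 to 5 mice of both sexes, and the spread between libraries is therefore a spread between pools. The Ctrl libraries held 2395002 and 3630447 counts and the KO libraries 3007444 and 4712473. The question for this family was whether the acetylation of its loci differed between Ctrl and KO Treg cells.

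AP-1 factors bind DNA as dimers. Jun proteins can pair with each other or with Fos, Batf or Jdp2 proteins, whereas Fos proteins need a partner of another subfamily. Many of the genes are switched on within minutes of T cell receptor or stress kinase signals. In T cells Batf and a Jun protein bind together with Irf4 at composite sites, and this complex is known for its role in effector and tissue Treg cells. The dimers read a short palindrome, TGANTCA, or the longer TGACGTCA.

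Matches to TGANTCA within the peaks of the family itself are shown here for 3 broad domains described below, those of Batf, Jdp2 and Junb. Each is printed on the plus strand of mm10 with 11 bases on either side, and the capitals mark the match.
Batf intron, chr12:85702229-85702257: gaaatgatatgTGAATCAaagcagaggct
Batf intron, chr12:85706342-85706370: cactatactttTGAGTCAacattctcatg
Jdp2 intron, chr12:85624736-85624764: aacactgtcacTGAGTCAtagccccagcc
Junb domain, chr8:84982389-84982417: ggggctgcctgTGAGTCAcgcagcgggca
Junb domain, chr8:84985332-84985360: cccgcttgttcTGAGTCAaaaaagcccct
Junb domain, chr8:84985646-84985674: cctcaggggccTGAGTCAtacacagggaa
Junb domain, chr8:84985676-84985704: gccgcgaggcaTGAGTCActcaggcagag
Junb domain, chr8:84985740-84985768: cagggctggccTGAGTCAcgcacgccctg
Of the 8 matches in the Junb window, 5 are printed, and all 5 lie between genes. A match to these letters is a description of the sequence and does not show that a factor was bound.

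Jun is known to be controlled by its own product through a variant of the longer site, TGACATCA, close to its start. The 250 bases before the Jun start (RefSeq, GRCm38.p6, chr4:95052223-95052472, minus strand, printed 5′ to 3′ of the gene) hold it, and the capitals mark it.
Jun promoter: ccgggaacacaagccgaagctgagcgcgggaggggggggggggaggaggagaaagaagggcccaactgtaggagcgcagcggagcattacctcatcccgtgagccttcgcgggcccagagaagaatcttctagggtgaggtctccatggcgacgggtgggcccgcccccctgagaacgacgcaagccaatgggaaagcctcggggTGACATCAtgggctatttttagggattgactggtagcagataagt
The match lies 45 to 38 bases before the start. Of all 32851 promoter stretches of this length, 2.93% hold TGACATCA on either strand. Promoter stretches of 250 bases were matched for 9 members. Within them no other member held TGACATCA, TGANTCA, TGACGTCA or the CArG box that serum response factor reads. These occur in 2.93%, 6.75%, 1.55% and 1.47% of all stretches. Peaks reach further, and some did hold them outside the stretch. The peak over the Fos start had 1 TGACATCA, 1 TGANTCA and 1 CArG box. Stretches followed RefSeq starts, and that of Jund (chr8:70697489-70697738) ended before its GENCODE start at 70698949. Those of Batf3 (chr1:191098164-191098413) and Fosl2 (chr5:32136222-32136471) lay after their GENCODE starts at 191097847 and 32135801, inside the genes.

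The cell type was checked on marker genes by the CPM per kb of window. The 6 Treg and T cell markers (Foxp3, Il2ra, Ctla4, Ikzf2, Cd3e and Cd4) lay between the 93.7th and 99.8th percentile of all protein-coding genes, and their summed level was 32.8 and 37.8 CPM per kb in Ctrl and 39.6 and 47.3 in KO. Both B cell markers together gave 0.585 to 1.04 CPM per kb, the 3 epithelial markers 0.0798 to 0.265, and Cd8a 0.0593 to 0.187, with Ms4a1 and Krt20 at 0. The 3 myeloid markers summed to 4.85 and 4.80 in Ctrl and 4.55 and 4.45 in KO, most of it from Cd14 (3.43 to 3.98), with Lyz2 at 0. The Cd14 window stood at the 92.6th percentile, just under that of Cd4 at 93.7. The Setd2 window itself had 129.8 and 179.2 CPM in Ctrl and 100.6 and 137.8 in KO, which overlapped between the groups, and acetylation outside the deleted part does not check the deletion. A change in the share of cells that carry the mark and a change in the mark per cell cannot be told apart in these pooled libraries.

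Most of the family lay in strongly acetylated windows. On the scale of CPM per kb of window, averaged over the 4 libraries, the order was Junb 13.9 ± 1.15 (SD, n = 4), Jund 6.91 ± 1.20, Batf 6.23 ± 0.957, Fos 5.62 ± 0.624, Fosb 3.19 ± 0.275, Jun 2.58 ± 1.05, Jdp2 2.51 ± 0.536, Fosl2 1.83 ± 0.171, Fosl1 1.31 ± 0.433 and Batf3 0.598 ± 0.110, against a median of 0.518 over the windows of all 21938 protein-coding genes. Junb, Jund, Batf, Fos and Fosb stood above the 90th percentile of these, at 99.9, 98.5, 97.9, 97.2 and 90.1. Batf3 stood at 52.7, close to the median. Only at 3 steps of this order were the ranges of the libraries apart, from Junb to Jund, from Fos to Fosb and from Fosl1 to Batf3. The ranges of all other neighbours overlapped, although Batf stood above Fos within each of the 4 libraries. Counted per kb of peak instead of per kb of window, Jun moved from the 6th to the 2nd place with 18.8 CPM per kb, after Junb with 30.9, as its peaks covered 13.7% of its window and those of Junb 44.9%. Jund followed closely with 18.4. The 2nd place of Jun rests on libraries 1, where its window had 142.1 CPM in Ctrl and 158.4 in KO. In libraries 2 it had 71.4 and 73.1. The plot of levels by library shows the order per kb of window.

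**Figure D1:**
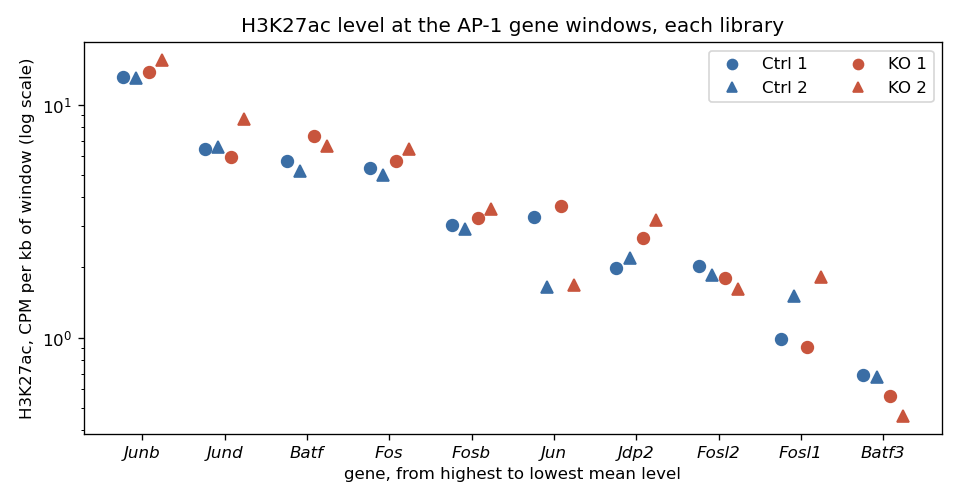
H3K27ac level of the 10 AP-1 family windows in each library, in CPM per kb of window on a log axis, ordered by the mean of the 4 libraries. Each symbol is 1 library, Ctrl in blue and KO in red, with circles for number 1 and triangles for number 2. Junb stood highest at 13.9 CPM per kb on average and Batf3 lowest at 0.598, and the 2 libraries numbered 1 stood apart from the 2 numbered 2 at Jun and Fosl1.

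A window can hold acetylation that belongs to a neighbour. Peaks whose nearest coding start site was that of the member itself gave 100% of the counts of Jun, Fos and Fosl2, 97.8% for Batf, 96.9% for Jdp2, 96.3% for Fosb, 84.9% for Junb, 74.9% for Jund and 72.2% for Batf3. For Fosl1 the share was 12.3%. The Fosl1 window also held Ccdc85b, Fibp, Ctsw and Efemp2, and its strongest peak lay closest to the start of AI837181, so the Fosl1 value describes the neighbourhood and little of Fosl1 itself.

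No member passed an adjusted p of 0.05 in the fit by genotype alone. In edgeR's quasi-likelihood test over 16106 windows, 0 of them passed (0.0% higher, 0.0% lower), and each of the 10 members had an adjusted p of 1. At an unadjusted p under 0.05 there were 409 windows (2.54%, with 0.335% higher and 2.2% lower) and 0 members. DESeq2 also called 0 windows and had 305 (1.89%) at an unadjusted p under 0.05. The fold changes were small. Of the members, 8 had a higher and 2 a lower value in KO, with a median log2 fold change of 0.17 and a range of −0.43 to 0.49, whereas 49.3% of all windows were higher with a median of −0.01. The groups did not overlap at 7 members (28.7% of all windows). KO was the higher group at 5 of them (Batf, Jdp2, Junb, Fos and Fosb) and the lower at 2 (Batf3 and Fosl2), as it was at 11.9% and 16.8% of all windows. The sum of the family was 2094.2 and 2001.1 CPM in Ctrl and 2279.1 and 2452.5 CPM in KO.

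The size of the difference moved with the level of a window. Among all windows, the top decile by abundance had a median log2 fold change of 0.18 with 82.5% of windows higher in KO, and Batf, Junb and Jund lie in it. The 9th decile, with Fos and Jdp2, had 0.08 and 63.9%. The 5th decile, with Fosl1, had −0.08 and 38.8%, and the 3rd, with Batf3, had −0.09 and 40.9%. With an offset fitted on the abundance of single peaks, Junb turned to −0.17, Jund to −0.01 and Jun to −0.04. Batf went from 0.36 to 0.18 and Fos from 0.24 to 0.12, whereas Fosb (0.19 and 0.17) and Jdp2 (0.49 and 0.44) changed little. How far the offset removed the trend over windows was not tested. The part of the level in the higher values of the family was not tested further.

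**Figure D2:**
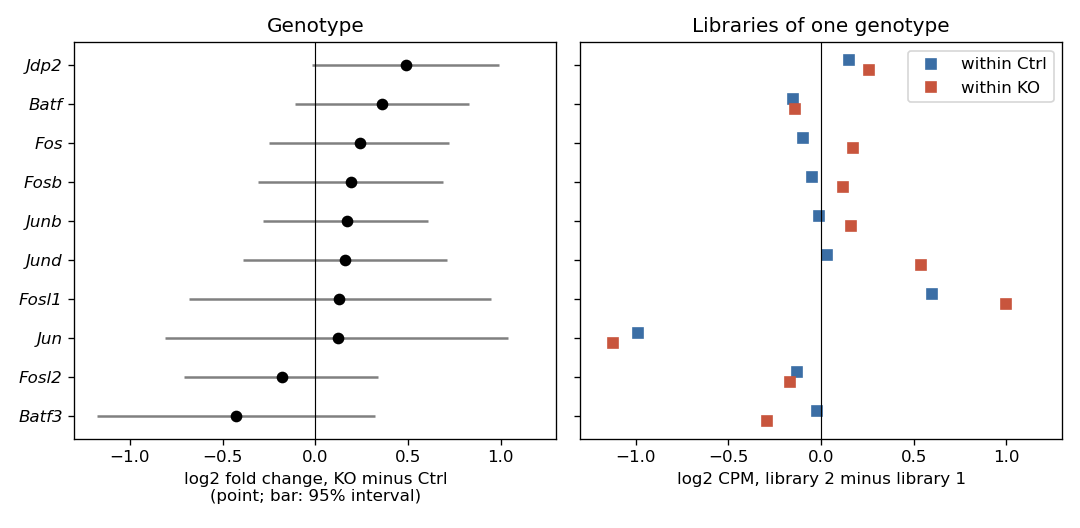
Left, log2 fold change, KO minus Ctrl, of each AP-1 family window (point) with its 95% interval from edgeR (bar), and right, the log2 CPM of library 2 minus library 1 within Ctrl and within KO (squares). The intervals of all 10 members include 0, with Jdp2 (0.49) and Batf3 (−0.43) at the ends, and on the right Jun (−0.99 and −1.12) lies furthest from 0.

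In the Jun subfamily, the partners that most AP-1 dimers share, Junb had the highest level of the family. Junb (ENSMUSG00000052837.6, chr8:84974484-84978718, minus strand) encodes a Jun protein that can pair with Batf. Its window held 579.5 and 576.4 CPM in Ctrl and 612.2 and 686.0 CPM in KO. The Ctrl libraries were almost equal and both KO libraries stood above them. The log2 fold change was 0.17 (SE 0.20, 95% interval −0.28 to 0.61).

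A single unbroken peak of 13285 bp at chr8:84973938-84987222 carried 84.9% of the Junb counts. It is wider than 99.9% of all peaks, runs from beyond the 3′ end of Junb to the position −8.50 kb from its start, and holds 6 of the TGANTCA matches between genes. Its values were 502.6, 478.8, 517.2 and 587.3 CPM in Ctrl 1, Ctrl 2, KO 1 and KO 2. They were higher in both KO libraries by a log2 fold change of 0.17 (SE 0.23). The Junb window also spans Rtbdn, Rnaseh2a, Gm49661, Prdx2 and Hook2, and the small peak with one of the family's 3 largest positive differences without overlap, at chr8:84992999-84993299 (1.81 and 1.49 against 4.47 and 3.11 CPM, log2 fold change 1.18, SE 1.18), lay nearest to the start of Hook2.

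Jund (ENSMUSG00000071076.6, chr8:70698949-70700616, plus strand), the Jun protein that is often present without stimulation, had 269.2 and 274.4 CPM in Ctrl and 247.4 and 360.6 CPM in KO. The KO libraries lay on either side of the Ctrl libraries, and the groups overlapped (log2 difference 0.16, SE 0.24, interval −0.39 to 0.71). Its main domain, 5843 bp at chr8:70693094-70698936, ended just before the GENCODE start and included the RefSeq promoter stretch of Jund. The domain held 57.2% of the counts, with 148.8 and 160.7 CPM in Ctrl and 136.0 and 209.9 in KO. Without KO library 2 the Jund difference turned to −0.17.

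Jun (ENSMUSG00000052684.4, chr4:95049034-95052222, minus strand), the founding member of the family, showed no separation by genotype. It had 142.1 and 71.4 CPM in Ctrl and 158.4 and 73.1 CPM in KO. Ctrl 1 and KO 1 were high, Ctrl 2 and KO 2 were low, and the groups overlapped almost wholly (log2 difference 0.12, SE 0.41, interval −0.81 to 1.04). The sign was not stable, since it turned to −0.31 without Ctrl 2 and to −0.56 without KO 1.

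At Jun the libraries separated by their number. Libraries 2 were lower than libraries 1 by 0.99 on the log2 scale in Ctrl and by 1.12 in KO. In the edgeR fit with genotype as a term the difference of replicate 2 minus replicate 1 was −1.06 (SE 0.15, adjusted p = 3.69e-11), a 2.08-fold higher value in libraries 1. Such a separation was common, with 33.0% of all windows called in this contrast, 19.5% higher and 13.5% lower in libraries 2, and the Jun value ranked 902nd from the lowest of 16106. The labels give no meaning to the numbers beyond naming replicates.

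Almost all of the Jun signal lay in 1 peak of 4128 bp over the promoter and the gene, at chr4:95049860-95053987, which includes the promoter sequence printed above. It held 89.0% of the counts, with 133.5 and 64.6 CPM in Ctrl and 137.1 and 63.0 in KO, so libraries of the same number were close in both genotypes (log2 difference 0.02, SE 0.28). The share of Jun counts in promoter peaks, which does not depend on the scaling between libraries, was 93.9% (exact Clopper-Pearson 95% interval 90.7 to 96.3) and 90.4% (86.0 to 93.8) in Ctrl and 86.6% (83.0 to 89.7) and 86.2% (81.8 to 89.9) in KO. Both KO libraries were lower. The exact two-sided permutation test gave p = 0.333, the smallest that 2 against 2 libraries allow. Outside the promoter, a peak at −16.14 kb from the start had 6.79 and 5.36 CPM in Ctrl and 11.6 and 8.39 in KO (log2 difference 0.71, SE 0.57), and was named after its values were seen.

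In the Fos subfamily, whose proteins bind DNA with a Jun partner, Fos and Fosb were slightly higher in KO and Fosl2 slightly lower. The interval of each included 0. Fos (ENSMUSG00000021250.13, chr12:85473890-85477273, plus strand), the classical immediate early gene, had 231.6 and 216.1 CPM in Ctrl and 248.1 and 279.4 CPM in KO. Both KO libraries were above both Ctrl libraries (log2 difference 0.24, SE 0.22, interval −0.25 to 0.72). The peak at the Fos promoter (chr12:85471740-85475134) did not separate the groups, with 76.9 and 60.7 CPM in Ctrl and 71.9 and 75.5 in KO.

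A far upstream peak centred at −19.36 kb from the Fos start, chr12:85452830-85456226 (3397 bp), held 29.5% of the counts summed over the libraries and the promoter peak 28.7%. The order rests on KO 2, since the promoter peak was the higher one in the other 3 libraries. The upstream peak had 61.5 and 57.7 CPM in Ctrl and 70.8 and 92.5 in KO. Both KO libraries were higher (log2 difference 0.46, SE 0.29). Another of the 3 largest positive differences without overlap was at a small peak at −2.78 kb from the Fos start, chr12:85470858-85471366, with 4.07 and 1.49 CPM in Ctrl and 7.82 and 5.75 in KO (log2 difference 1.33, SE 0.78), where the values rest on few counts.

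Fosb (ENSMUSG00000003545.3, chr7:19302696-19310051, minus strand), a paralog of Fos induced by the same signals, had 143.4 and 139.0 CPM in Ctrl and 154.3 and 168.2 CPM in KO. The groups did not overlap, and the difference was small (log2 difference 0.19, SE 0.22, interval −0.31 to 0.69). The strongest Fosb peak lay upstream of the promoter, at −9.81 kb from the start, chr7:19319135-19320595, with 33.9 and 40.5 CPM in Ctrl and 44.0 and 43.1 in KO (log2 difference 0.22, SE 0.32). Promoter peaks gave 24.6% to 33.1% of the Fosb counts and 28.8% to 35.0% of the Fos counts, against 83.1% to 86.7% at Junb and 86.2% to 93.9% at Jun.

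Fosl2 (ENSMUSG00000029135.10, chr5:32135801-32157842, plus strand), which encodes Fra-2, had 125.8 and 115.2 CPM in Ctrl and 112.5 and 99.9 CPM in KO. Both KO libraries were lower, by little (log2 difference −0.18, SE 0.23, interval −0.71 to 0.34). Of its 10 tested peaks, 7 had a lower value in KO. The peak over its start, chr5:32135215-32136623, held 34.8 and 33.9 CPM in Ctrl and 30.6 and 33.3 in KO (log2 difference −0.10, SE 0.34).

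Fosl1 (ENSMUSG00000024912.6, chr19:5447547-5455946, plus strand), which encodes Fra-1, had 48.0 and 72.9 CPM in Ctrl and 44.0 and 88.2 CPM in KO. Here libraries 1 were low and libraries 2 high, the reverse of Jun, and the groups overlapped (log2 difference 0.13, SE 0.36, interval −0.68 to 0.95). It turned to −0.14 without Ctrl 1 and to −0.50 without KO 2. Replicate 2 minus replicate 1 was 0.81 in edgeR (SE 0.19, adjusted p = 0.000148), 0.60 within Ctrl and 1.0 within KO. The strongest peak, chr19:5432056-5434153 beside AI837181, had 17.2 and 24.1 CPM in Ctrl and 19.7 and 32.8 in KO (log2 difference 0.35, SE 0.37).

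Batf, Batf3 and Jdp2 encode small bZIP proteins that lack the activation domain of Fos and act through their Jun partners. Batf and Jdp2 had the largest positive differences of the family and Batf3 the largest negative one. None passed the test by genotype alone.

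Batf (ENSMUSG00000034266.6, chr12:85686669-85709087, plus strand), known to be needed for tissue Treg cells, had 358.8 and 322.9 CPM in Ctrl (mean 340.8 ± 25.4, SD, n = 2) and 457.5 and 415.7 CPM in KO (436.6 ± 29.6). Both KO libraries were above both Ctrl libraries. The log2 fold change was 0.36 (SE 0.21, interval −0.11 to 0.83). Of 11 tested peaks, 9 were higher in KO, and at 5 of these the groups did not overlap, where 49.2% and 16.9% of all tested peaks did so. The Batf window lies in the top decile by abundance, where 82.5% of windows were higher in KO.

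Most of the Batf signal came from a pair of broad domains. The one over the second part of the gene, chr12:85700001-85709233 (9233 bp), held 47.1% of the counts and both Batf sites printed above, with 173.7 and 143.4 CPM in Ctrl and 215.4 and 200.1 in KO. The one at the promoter, chr12:85686025-85692103 (6079 bp), held 27.3%, with 90.9 and 90.2 CPM in Ctrl and 111.8 and 124.6 in KO. Both domains had a log2 fold change of 0.39 (SE 0.26 and 0.28), and neither overlapped between the groups. At the far edge of the window the direction was the opposite, as a peak at chr12:85727517-85728277, nearest to the start of Flvcr2, had 6.79 and 7.44 CPM in Ctrl and 5.22 and 1.68 in KO (log2 difference −1.10, SE 0.72).

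Jdp2 (ENSMUSG00000034271.16, chr12:85599027-85639878, plus strand), whose product pairs with Jun proteins and is known as a repressor of AP-1 targets, had the largest difference of the family. It held 160.6 and 178.0 CPM in Ctrl (169.3 ± 12.3) and 216.1 and 258.0 CPM in KO (237.1 ± 29.7). The groups did not overlap. The fold was 1.40 (95% interval 0.988 to 1.99), a log2 fold change of 0.49 (SE 0.22).

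The Jdp2 signal lay inside the gene, with 14.2% to 16.6% of the counts in promoter peaks, and 12 of 14 tested peaks were higher in KO. The strongest was an intronic domain 25.86 kb after the start, chr12:85623320-85626446 (3127 bp), which holds the Jdp2 site printed above. It had 26.7 and 35.4 CPM in Ctrl and 43.6 and 58.7 in KO. It was the only tested peak of the family with an unadjusted p under 0.05 in edgeR (log2 difference 0.72, SE 0.32, adjusted p = 0.998), where 4.24% of all tested peaks had one, 1.45% higher and 2.79% lower. Peaks further into the gene, at chr12:85628680-85630360 and chr12:85637518-85639440, had 13.1, 16.1, 22.0 and 27.1 CPM and 14.5, 23.8, 33.5 and 29.9 CPM in the same order of libraries, and both were named after their values were seen. They were higher in both KO libraries as well.

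Batf3 (ENSMUSG00000026630.9, chr1:191097847-191108945, plus strand), best known for its role in dendritic cells, had the lowest level and the most negative difference. It held 35.3 and 34.8 CPM in Ctrl and 28.7 and 23.5 CPM in KO, without overlap (log2 difference −0.43, SE 0.33, interval −1.18 to 0.32). No peak overlapped the Batf3 gene itself. The promoter peak at −1.10 kb from its start, chr1:191096896-191097552, had 9.50 and 5.65 CPM in Ctrl and 3.35 and 3.11 in KO (log2 difference −1.20, SE 0.71).

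Peaks of the Batf3 window differed in direction. A peak at −15.79 kb from the start, chr1:191082261-191082818, had 5.43 and 4.76 CPM in Ctrl and 3.35 and 0.958 in KO (log2 difference −1.29, SE 0.94), and the strongest peak, chr1:191078231-191079314, which lay nearest to the start of Nsl1, had 8.14 and 14.0 against 4.84 and 5.99 (log2 difference −1.03, SE 0.56). On the other side a peak 26.98 kb after the start, chr1:191125137-191125483, had the largest positive difference among the family's tested peaks whose groups did not overlap, with 1.81 and 1.19 against 4.84 and 3.83 CPM (log2 difference 1.53, SE 1.12). All rest on few counts.

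Fos, Jdp2 and Batf are neighbours on chromosome 12. The stretch from the start of the Fos window to the end of the Batf window, chr12:85453890-85729087 (275.2 kb), holds no other protein-coding gene, and it was examined together after the values of the members were seen. Its peaks summed to 806.2 and 789.5 CPM in Ctrl and 1002.3 and 1017.3 CPM in KO. All 3 windows were already higher in KO without overlap, so the separation of their sum followed from that and is no further result. Of its 54 peaks 43 were tested, of which 34 were higher and 9 lower in KO, with a median log2 fold change of 0.39. Among all tested peaks 49.2% were higher. Fos and Jdp2 lie in the 9th decile by abundance and Batf in the top one, where 63.9% and 82.5% of windows were higher. The 8 peaks of the stretch that lie outside the 3 windows had 55.2 and 72.6 CPM in Ctrl and 80.5 and 64.2 in KO and overlapped. The 3 genes share this stretch, so their differences are not 3 separate observations.

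**Figure D3:**
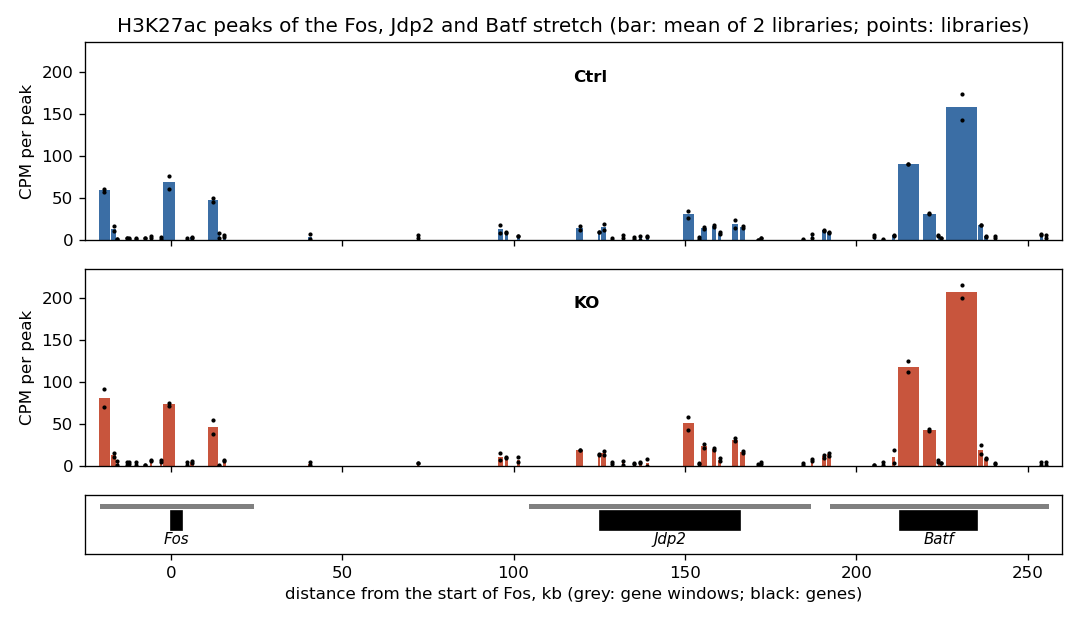
H3K27ac along the Fos, Jdp2 and Batf stretch, as CPM of each peak against the distance from the Fos start in kb, with Ctrl above KO. Bars are the mean of 2 libraries, drawn along the peak, points are the libraries, and the strip below shows windows (grey) and genes (black). The intronic Jdp2 domain and both broad Batf domains are higher in KO without overlap of the points, whereas the Fos promoter peak (60.7 to 76.9 CPM) overlaps between the genotypes.

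Over all windows of the family, 92 of the 114 peaks had enough counts to be tested, and 22 did not. Of the tested ones, 63 were higher and 29 lower in KO, with a median log2 fold change of 0.16, against 49.2% higher among all tested peaks. The groups did not overlap at 32 higher and 9 lower ones, where 16.9% and 16.4% of all tested peaks did so. Among all tested peaks the fold change rose with width. At 3 kb or wider the medians were 0.21 with TGANTCA and 0.15 without it, and under 400 bp −0.03 and −0.11. The family had 9 peaks of 3 kb or wider among 114, and the whole set 4075 among 124158. The part of width in the higher peaks of the family was not tested. Taking all 114, the mean was higher in KO at 76 (66.7%, against 49.5% of all peaks). The smallest adjusted p was 0.998, and DESeq2 called 0 peaks in the whole table, where edgeR called 1 (0.00134%) that is not in the family. By place, 17 of 22 promoter peaks, 12 of 16 gene body peaks, 21 of 32 upstream peaks and 13 of 22 downstream peaks were higher, with medians of 0.16, 0.26, 0.20 and 0.10. The shares of all peaks at these places were not counted. Peaks of 1 window share the gene and the libraries and are not replicates.

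**Figure D4:**
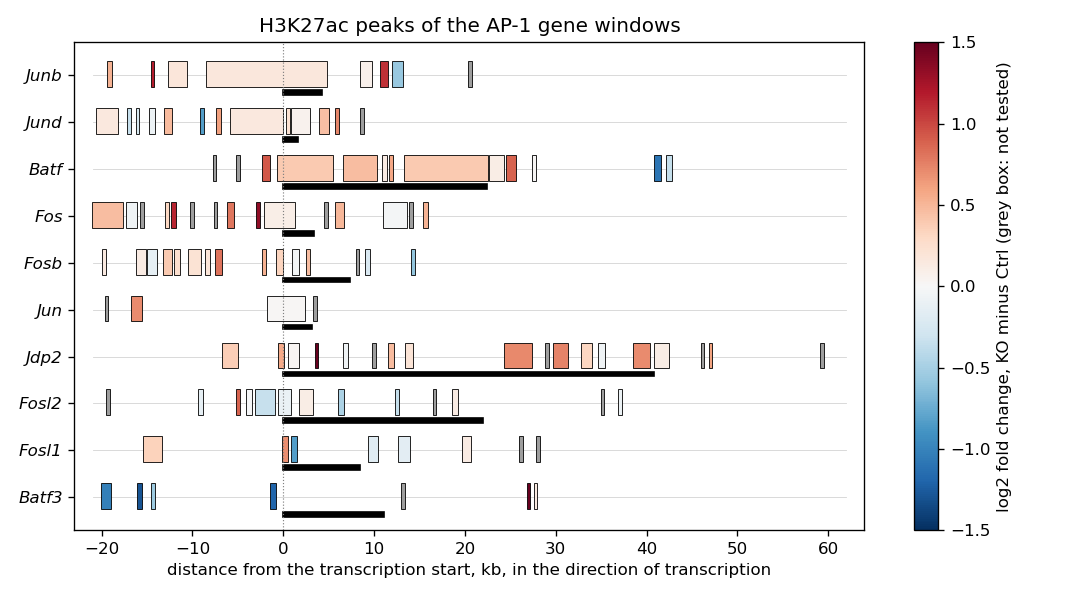
Peaks of each AP-1 family window placed by their distance from the gene start in kb and coloured by the log2 fold change, KO minus Ctrl, with grey boxes not tested and black bars for the genes. Jdp2 and Batf show mostly higher peaks (12 of 14 and 9 of 11), Batf3 and Fosl2 mostly lower ones (4 of 6 and 7 of 10).

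Besides Jun, promoter shares did not overlap between the genotypes at Batf3 (26.9% and 16.2% in Ctrl against 11.7% and 13.3% in KO). The separation was barely present at Jund (70.3% and 69.8% against 68.5% and 69.7%). At Jdp2 (15.2% and 16.6% against 15.2% and 14.2%) the nearest shares were equal at this rounding. Batf3, Jund and Jdp2 each had an exact two-sided permutation p of 0.333 as well. The Batf3 intervals overlap widely, from 17.5% to 38.2% in Ctrl 1 and from 7.26% to 21.6% in KO 2. These intervals cover counting error only. How many of all windows separate in this way was not counted.

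The AP-1 motif occurred at the genes that encode the family about as often as elsewhere. TGANTCA, searched on both strands, occurred in 25 of the 114 peaks (21.9%), and in 20.3% of all peaks. Because long peaks hold more matches by length alone, the density was compared as well, and it was 0.313 matches per kb in the family and 0.328 per kb in all peaks. The 42 matches were spread unevenly, with 8 each at Junb and Jund, 7 at Batf, 5 each at Fosb, Fosl1 and Jdp2, 3 at Fosl2, 1 at Fos and 0 at Jun and Batf3. TGACGTCA occurred in 2 of the 114 peaks (1.75%) and in 1.05% of all. Across all tested peaks, the 19702 with TGANTCA had a median log2 fold change of 0.08 and the 54848 without it −0.05, and both the motif and the fold change go with peak width. Among peaks of 3 kb or wider the medians were 0.21 and 0.15, and among those under 400 bp −0.03 and −0.11.

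Genes around the pathway were read from the same edgeR fit, from lists chosen by role with earlier results of these data known. Of 7 factors that bind beside AP-1 at composite sites (Irf4, Irf8, Nfatc1, Nfatc2, Nfatc3, Runx1 and Ets1), 7 had a higher value in KO, 5 of them without overlap, with a median of 0.21. Over all windows 49.3% were higher and 11.9% were higher without overlap, but 6 of these 7 genes lie in the top decile by abundance, where 82.5% were higher with a median of 0.18, and Irf8 lies in the 9th. None had an adjusted p under 1. Irf4, the partner of Batf, had 293.6 and 247.3 CPM in Ctrl and 384.5 and 352.2 in KO (log2 difference 0.45). Ets1, a lymphocyte factor of the Ets family, had 1046.0 and 1240.1 CPM in Ctrl and 1384.9 and 1772.8 in KO (log2 difference 0.47). Both were higher in both KO libraries, and only Ets1 of the 7 had an unadjusted p under 0.05 in edgeR.

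Upstream of AP-1, 24 genes of the MAP kinase cascade, its nuclear targets and its phosphatases were tested. Of these 14 were higher and 10 lower with a median of 0.03, and 0 had an unadjusted p under 0.05. The furthest from 0 were Dusp5, a phosphatase of nuclear ERK, with 233.0 and 255.0 CPM in Ctrl and 321.5 and 357.2 in KO (log2 difference 0.48), and Elk1, a factor that acts with serum response factor at Fos, with 42.5 and 41.4 against 36.1 and 22.0 (−0.54).

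Among 22 other bZIP genes, 10 were higher and 12 lower with a median of −0.01, and the groups did not overlap at 1 (4.55%, against 28.7% of all windows). That gene was Cebpb, a C/EBP factor, with 82.8 and 72.0 CPM in Ctrl and 101.0 and 138.2 in KO (log2 difference 0.63, SE 0.26), with an unadjusted p under 0.05 and an adjusted p of 1 in edgeR. Maff, a small Maf protein, followed with 95.5 and 153.3 against 121.8 and 192.6 CPM (0.34), where the groups overlapped. In the contrast of library numbers, 16 of these 22 genes had an adjusted p under 0.05 in edgeR, where 33.0% of all windows did, and 3 of the 10 family members did (Jun, Fosl1 and Jund, the last with 0.29 and an adjusted p of 0.0112).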

How the data were processed

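H3K27ac CUT&Tag was analysed in 4 libraries (Ctrl and KO, 2 each). An IgG control library was listed but not analysed here. Reads had been trimmed by the authors and mapped to mm10 with Bowtie2, and after keeping unique reads and removing duplicates they used MACS2 with IgG as background to call peaks, and joined the peaks with bedtools. Versions are not given in the sources used here. What was deposited are raw counts for each joined peak, so the peak set depends on the libraries compared.

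Counts were summed over the peaks overlapping each protein-coding gene of GENCODE M21 extended by 20 kb, and a peak in several windows was counted in each. A window or peak was tested if 2 or more libraries reached 10 counts (16106 and 74550), with edgeR 4.0.16 in R 4.3.3 (quasi-likelihood, TMM, no covariate, Benjamini-Hochberg over the whole table). DESeq2 1.42.0, which the study used, other scalings, count minimums and windows, a replicate block and leaving out each library were alternatives. A promoter peak lay within 3 kb of a start site. For peaks edgeR estimated infinite prior degrees of freedom, so that single peaks were tested with the trended spread. The same held for windows in the replicate contrast, under the replicate block and on leaving out a library. Those p-values do not rest on the spread of the single window. Libraries of a group differed beyond counting noise (chi-square per degree of freedom 4.07 and 4.20). The code was tested on simulated counts.

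The members, gene lists and tests were chosen with earlier results of these data known. Named were all members, in each window the peak with most counts, peaks with an unadjusted p under 0.05, the 3 largest positive and 3 largest negative differences without overlap, and in each list the genes with an unadjusted p under 0.05 and the 2 furthest from 0. Other peaks are named as context, after their values were seen. The p-values of windows by genotype rest on the spread between 2 pools of mice per genotype, moderated by the spread over all windows. Those of peaks rest on the trended spread.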

Additional observations from a re-analysis of the deposited data

How the results depend on the processing

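Of 149 alternative values of the members, 139 kept direction and side of the threshold. The sign turned with the loess offset on abundance (Jun −0.04, Junb −0.17, Jund −0.01) and on leaving out a library (Jun −0.31 without Ctrl 2 and −0.56 without KO 1, Jund −0.17 without KO 2, Fosl1 −0.14 without Ctrl 1 and −0.50 without KO 2). On leaving out a library Jun reached 0.68, Jund 0.39 and Fosl1 0.52 at most. Over the settings Batf ranged from 0.18 to 0.43, Jdp2 from 0.32 to 0.59, Fos from 0.10 to 0.30, Fosb from 0.10 to 0.24, Fosl2 from −0.29 to −0.03 and Batf3 from −1.21 to −0.22. The gene span alone gave no value for Batf3, which holds no peak. The replicate numbers are only numbers in the labels. Same-numbered libraries deviated together (r = 0.519 over windows and 0.24 over peaks). With the number as a replicate block, edgeR called 830 of 16106 windows higher and 802 lower in KO. Of 74550 peaks it called 152 higher and 59 lower. The fit without the block called 0 windows, 1 peak higher and 0 lower. Under the block, where windows were tested with the trended spread, Batf (0.36, adjusted p = 0.00182) and Jdp2 (0.49, adjusted p = 0.000507) passed. By abundance Batf lies in the top decile and Jdp2 in the 9th, where 82.5% and 63.9% of windows were higher in KO without the block. The block changed no other member's call. The 1 higher peak became 0 with DESeq2, without a count minimum and with a minimum of 50, and 0 to 1 on leaving out a library (0 without Ctrl 1, Ctrl 2 or KO 2). The loess offset gave 1 lower peak. For the replicate contrast, 3139 higher and 2171 lower windows became 812 and 632 without a genotype term, and Jund then had 0.30 (adjusted p = 0.268). In that edgeR fit Jun and Fosl1 still passed, with larger adjusted p-values of 0.0136 and 0.0349. The causes were not tested. With 2 libraries per genotype even the interval of Junb, the member with the most counts, ran from −0.28 to 0.61.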
